A study of Mus musculus with 12 samples.

Results

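Transcripts of 10 genes of bone morphogenetic protein (BMP) signalling and the ID proteins were followed in the ventricular zone of the embryonic mouse dorsal cortex. They were taken by gene symbol from the 55487 genes listed in each deposited table: the 4 inhibitor of DNA binding genes Id1, Id2, Id3 and Id4, the ligands Bmp4 and Bmp7, the type I receptors Bmpr1a and Bmpr1b, the signal transducer Smad1 and the inhibitory Smad6. All 10 were among the 16798 genes tested. Id4 carried the main result: it was 2.34-fold lower in the libraries labelled p18mKO2+ than in those labelled p18mKO2- at E13.5, and within the p18mKO2- label it dropped 6.34-fold from E13.5 to E16.5.

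BMP ligands bind pairs of type I and type II receptor kinases, which phosphorylate the receptor SMADs. These join SMAD4, enter the nucleus and switch on target genes, of which the Id genes are the best known. ID proteins have a helix-loop-helix but no DNA-binding region. They pair with E proteins and so keep these from forming active dimers with proneural bHLH factors such as the neurogenins, and in the developing cortex they are linked to progenitor maintenance, the timing of neurogenesis and the later production of astrocytes. SMAD6 blocks the pathway and is itself one of its targets.

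The study asked how cyclin-dependent kinase inhibitors bear on the change from neuron to astrocyte production, with mice that carry in the ROSA26 locus a p18 and mKO2 (a fluorescent protein) cassette behind a stop sequence that Cre removes. All 4 groups came from tamoxifen-treated animals and held 3 libraries each: E13.5 p18mKO2- and E16.5 p18mKO2-, with the genotype given as normal, and E13.5 p18mKO2+ and E16.5 p18mKO2+, with the genotype given as p18mKO2 over-expression. Tissue was cut by laser microdissection, and polyadenylated RNA was sequenced. The labels name no Cre line, no day of tamoxifen and no share of recombined cells, and do not say whether replicates were separate embryos. If they were not, each p-value reflects only how these libraries vary, which may be technical.

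The libraries held 17101971 to 21837088 estimated counts. Cdkn2c, the gene of the cell cycle inhibitor p18, lay between 17.7 and 27.6 CPM (counts scaled to a common library size) in E13.5 p18mKO2-, between 21.6 and 32.6 in E13.5 p18mKO2+, between 15.1 and 31.8 in E16.5 p18mKO2- and between 25.8 and 31 in E16.5 p18mKO2+. It was not called between the p18 labels at either stage (edgeR adjusted p = 0.798 and 1.0), so its level did not bear out the labels. The labels do not say whether reads of the ROSA26 cassette were counted under Cdkn2c, so this level cannot show whether the cassette was expressed. Every p18 direction below is therefore one between libraries labelled p18mKO2+ and p18mKO2-. Replicate 3 of E13.5 p18mKO2+ and of E16.5 p18mKO2+ held transcripts of both sexes (Xist and the Y-linked Eif2s3y each at 10 TPM or more). Y-linked transcripts went with the labels: Eif2s3y was at 10 TPM or more in 0 of 3 E13.5 p18mKO2-, 2 of 3 E13.5 p18mKO2+, 1 of 3 E16.5 p18mKO2- and 3 of 3 E16.5 p18mKO2+ libraries. Replicate 3 of E16.5 p18mKO2- differed most from the other libraries of its group. A ribosomal RNA gene, a sign of library make-up, lay between 14.02 and 15.27 (log2 CPM) in E16.5 p18mKO2+ and between 16.11 and 17.21 in E16.5 p18mKO2-. Of 8 radial glial markers (such as Sox2 and Pax6) none was at 0 in any group, and their summed level lay between 1327.5 and 2732.6 CPM, so that progenitors of the labelled tissue were present in every library.

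The sequence before the start of Id4 is shown because Id4 carried the main result, and a short stretch of Id2 because it holds the same motif and moved the other way with stage. RefSeq (GRCm38.p6) listed promoters for 8 of the 10 genes, in 10 entries, and not for Id1 and Bmp7. In the 250 bases before each start, both strands were searched for GGCGCC, a GC-rich site bound by SMAD1 and SMAD5, and for CAGAC, found in the SMAD box. Capitals mark GGCGCC, which reads the same on both strands. The Id4 sequence is chr13:48260866-48261115 on the plus strand, outside any exon and within introns of the antisense transcripts A330033J07Rik and Gm49291. The Id2 sequence is chr12:25096306-25096335 on the minus strand, within an intron of a longer Id2 transcript.
Id4: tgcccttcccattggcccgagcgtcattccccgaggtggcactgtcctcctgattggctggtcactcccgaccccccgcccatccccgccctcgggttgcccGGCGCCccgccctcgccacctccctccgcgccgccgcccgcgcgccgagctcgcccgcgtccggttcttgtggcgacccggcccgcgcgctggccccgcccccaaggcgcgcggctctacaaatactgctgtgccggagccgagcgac
Id2: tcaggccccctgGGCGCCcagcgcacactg
GGCGCC began 148 bases before the Id4 start, 231 before that of Id2 and 198 before that of Bmpr1a, and 9.59% of 32851 RefSeq mouse promoters of this length held it. CAGAC lay before Id3, at 167 and 68 bases, and before 2 of the 3 Bmpr1b starts, beside 42.2% of all promoters. The Id4 stretch was 75.6% G and C and that of Id2 62.8%, against a median of 52.4%.

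Id4 (ENSMUSG00000021379, chromosome 13, 48261228 to 48266026, plus strand, GRCm38) encodes the family member best known in neural progenitors. In E13.5 p18mKO2- it was at 647, 655 and 729 CPM. The libraries labelled E13.5 p18mKO2+ held 266, 312 and 289 CPM. At E16.5 it was at 109, 100.2 and 111.1 CPM in p18mKO2- and at 114, 153 and 112.7 CPM in p18mKO2+. The E13.5 groups lay far apart, and both E16.5 groups lay below every E13.5 library and next to each other.

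Between the p18 labels at E13.5 the Id4 level fell from 677 ± 45.6 to 289 ± 23.4 CPM (SD, n = 3 each), or -1.23 ± 0.14 (SE) in log2 terms, at an adjusted p of 0.000193 in edgeR's quasi-likelihood test, with all 3 labelled p18mKO2+ libraries below all 3 others. By p it ranked 48 among the 16798 genes. At E16.5 the change was 0.25 ± 0.14 (edgeR adjusted p = 1.0), from 106.7 ± 5.75 to 127 ± 23.0 CPM, and the groups were apart by only the step from 111.1 to 112.7 CPM. The difference of these p18 effects, tested as an interaction, was 1.48 ± 0.20 on the log2 scale (edgeR adjusted p = 0.00181). With stage, Id4 fell by 2.67 ± 0.15 in the libraries labelled p18mKO2- (edgeR adjusted p = 1.09e-07) and by 1.19 ± 0.14 in those labelled p18mKO2+ (edgeR adjusted p = 0.00128). The E13.5 p18 comparison, the interaction and the stage change in p18mKO2- all use the E13.5 p18mKO2- libraries.

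Each of these calls held in all alternatives run: the E13.5 change stayed between -1.29 and -1.05, the interaction between 1.33 and 1.57, and the stage change in p18mKO2+ between -1.31 and -1.08. Without the 2 libraries with transcripts of both sexes the E13.5 change was -1.23 (edgeR adjusted p = 0.00163) and the interaction 1.56 (edgeR adjusted p = 0.00791). With a covariate for Y-linked genes they were -1.26 (edgeR adjusted p = 0.00269) and 1.48 (edgeR adjusted p = 0.00469). Counts for Id4 lay between 1772 and 12471 a library. Its exons overlap those of A330033J07Rik and Gm49291 on the other strand, which held 18 and 2 counts over the 12 libraries.

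Cell type markers moved beside Id4. At E13.5 the summed radial glial markers lay between 2400.1 and 2732.6 CPM in p18mKO2- and between 1500.0 and 2100.5 in p18mKO2+, with 3 of the 8 lower and 0 higher. Summed neuronal markers (8 genes such as Tubb3 and Dcx) lay between 2071.6 and 2459.2 CPM in p18mKO2- and between 4346.8 and 5460.9 in p18mKO2+, with 5 of 8 higher and 0 lower. Of all genes tested at E13.5, 7.29% were higher and 3.49% lower. At E16.5 neuronal markers lay between 6536.6 and 8544.2 CPM in p18mKO2- and between 6261.9 and 6902.8 in p18mKO2+, and radial glial markers between 1327.5 and 1822.1 and between 1564.6 and 1713.7. With stage in p18mKO2-, beside the fall of Id4 and the rise of Id2, 5 of the 8 radial glial markers were lower and 1 higher, and 7 of the 8 neuronal markers were higher and 0 lower. In that comparison 13.4% of all genes were lower and 16.4% higher. Markers of the ventral telencephalon (7 genes such as Dlx2 and Gad1), which lies outside the labelled tissue, summed to between 136.93 and 382.13 CPM in E13.5 p18mKO2- and between 467.16 and 662.75 in E13.5 p18mKO2+, with 1 of 7 higher and 0 lower. At E16.5 they lay between 144.58 and 228.07 CPM in p18mKO2- and between 321.46 and 489.02 in p18mKO2+. Markers of red blood cells lay between 1346.5 and 1390.2 CPM in E13.5 p18mKO2- and between 491.71 and 815.5 in E13.5 p18mKO2+. Pericyte markers lay between 58.0 and 89.4 CPM in E13.5 p18mKO2- and between 115.36 and 127.65 in E13.5 p18mKO2+. There 1 of 7 was higher and 0 lower. Of 6 astrocyte markers, 2 were higher and 1 lower at E13.5. With stage in p18mKO2-, meningeal markers moved from between 109.94 and 182.79 CPM to between 41.2 and 81.09. Among these 7, 3 were lower and 0 higher. No marker of the radial glial, neuronal and ventral lists was at 0 in any group, and the part of these shifts in the Id4 and Id2 results was not tested. In such bulk tissue, fewer cells of a type and less RNA per cell cannot be told apart.

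**Figure D1:**
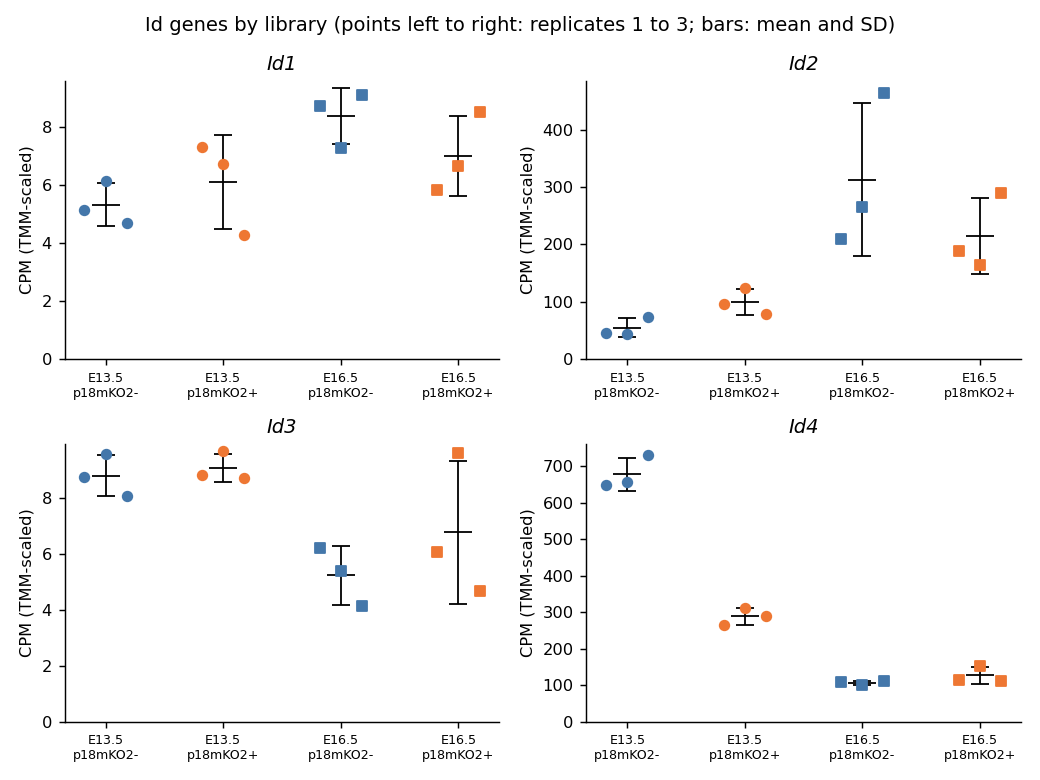
CPM (TMM-scaled) of Id1, Id2, Id3 and Id4 in each library, by stage and p18 label, with the mean and SD of 3 libraries as bars; each panel starts at 0. Id4 ran from 729 CPM at its highest in E13.5 p18mKO2- to 100.2 CPM in E16.5 p18mKO2-, while Id2 ran from 44.4 CPM to 463 CPM across the same groups.

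Id2 (ENSMUSG00000020644, chromosome 12, 25093799 to 25097140, minus strand), expressed in progenitors and in some cortical neurons, went the other way with stage. It was at 45.9, 44.4 and 73.8 CPM in E13.5 p18mKO2- and at 96.2, 123 and 78.7 CPM in E13.5 p18mKO2+. At E16.5 it was at 209, 266 and 463 CPM in p18mKO2- and at 189, 164 and 290.0 CPM in p18mKO2+. Every E16.5 library lay above every E13.5 library, and at E13.5 the p18 labels were separated by the step from 73.8 to 78.7 CPM.

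Id2 rose with stage in p18mKO2-, from 54.7 ± 16.6 to 313 ± 134 CPM (SD, n = 3 each). Its log2 change was 2.52 ± 0.32 (SE; edgeR adjusted p = 5.95e-05), which was called in all 22 alternatives. In p18mKO2+ the stage change was 1.11 ± 0.30 and missed the threshold (edgeR adjusted p = 0.0842). The E13.5 difference between the p18 labels, 0.86 ± 0.30, missed it too (edgeR adjusted p = 0.0884), as did the E16.5 difference of -0.54 ± 0.30 (edgeR adjusted p = 1.0) and the interaction of -1.40 ± 0.43 (edgeR adjusted p = 0.102). With DESeq2 the E13.5 difference, the stage change in p18mKO2+ and the interaction of Id2 passed, at adjusted p of 0.0269, 0.00477 and 0.0141. Without replicate 3 of E16.5 p18mKO2-, the library with the highest Id2, the E13.5 difference was 0.86 (edgeR adjusted p = 0.0317) and the stage change in p18mKO2+ 1.13 (edgeR adjusted p = 0.0245).

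Id1 and Id3, the classic immediate BMP targets, were sparse. Id1 (ENSMUSG00000042745, chromosome 2, 152736251 to 152737410) was at 5.14, 6.13 and 4.68 CPM in E13.5 p18mKO2- and at 7.32, 6.72 and 4.27 CPM in E13.5 p18mKO2+. At E16.5 Id1 was at 8.72, 7.28 and 9.10 CPM in p18mKO2- and at 5.84, 6.65 and 8.52 CPM in p18mKO2+. The E16.5 p18mKO2- libraries lay above all E13.5 p18mKO2- libraries, and the p18 labels overlapped at both stages.

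Id3 (ENSMUSG00000007872, chromosome 4, 136143497 to 136145755) was at 8.72, 9.55 and 8.07 CPM in E13.5 p18mKO2- and at 8.82, 9.65 and 8.71 CPM in E13.5 p18mKO2+. It was at 6.20, 5.39 and 4.11 CPM in E16.5 p18mKO2- and at 6.04, 9.57 and 4.65 CPM in E16.5 p18mKO2+. The p18 labels overlapped at both stages, with E13.5 values nearly on top of each other. The stage changes in p18mKO2- were 0.65 ± 0.28 for Id1 (edgeR adjusted p = 0.0932) and -0.75 ± 0.28 for Id3 (edgeR adjusted p = 0.0619), and their E13.5 differences between the p18 labels were 0.20 ± 0.28 and 0.04 ± 0.28. Neither gene was called in any of the 5 comparisons of the main fit. The Id3 stage change in p18mKO2- was called in 2 of 22 alternatives and lay between -0.88 and -0.59 over all of them. The libraries held 80 to 185 counts for Id1 and 71 to 211 for Id3.

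Levels of different genes were compared as TPM, which allow for transcript length. In E13.5 p18mKO2- the order was Id4 (276 ± 7.45 TPM, SD, n = 3), Id2 (75.0 ± 19.5), Bmpr1a (40.4 ± 10.4), Smad1 (29.7 ± 5.40), Id3 (12.5 ± 1.41), Id1 (10.4 ± 1.71), Bmp7 (5.43 ± 2.42), Bmpr1b (4.68 ± 0.713), Smad6 (2.49 ± 0.551) and Bmp4 (2.18 ± 1.0). Below Id2, neighbours in this order overlapped between libraries except Smad1 and Id3, Id1 and Bmp7, and Bmpr1b and Smad6, and Id4, Id2 and Bmpr1a did not overlap. In E16.5 p18mKO2- Id2 led with 415 ± 124 TPM, and Id4, at 43.3 ± 4.11 TPM, lay beside Smad1 at 38.6 ± 5.67 TPM.

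Within the 4 Id genes, Id4 made up 75.6%, 75.4% and 70.8% of summed TPM in the E13.5 p18mKO2- libraries. Its share was 40.0%, 39.2% and 47.2% in E13.5 p18mKO2+. At E16.5 it was 12.4%, 9.52% and 6.42% in p18mKO2- and 14.2%, 19.9% and 9.82% in p18mKO2+. The E13.5 p18mKO2+ libraries thus lay between the E13.5 p18mKO2- libraries and both E16.5 groups, a description chosen after the values were seen. Id2 filled most of the remainder, from 17.3% in E13.5 p18mKO2- replicate 2 to 90.2% in E16.5 p18mKO2- replicate 3, while Id1 and Id3 together stayed between 3.4% and 10.0%. Summed Id TPM ran from 294.4 to 402.5 at E13.5 and from 383.0 to 610.1 at E16.5.

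**Figure D2:**
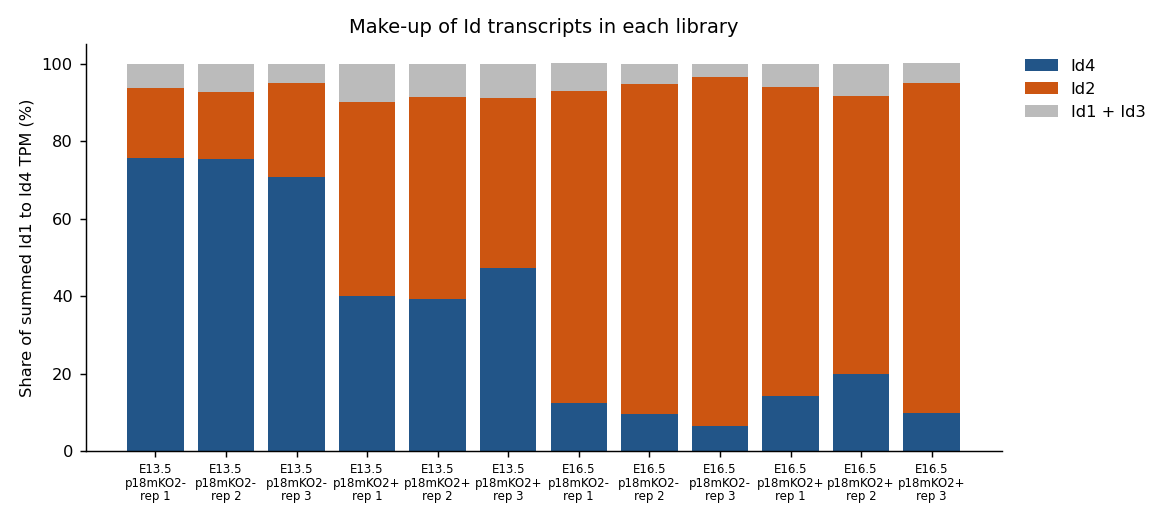
Share of the summed TPM of Id1 to Id4 (percent, stacked to 100) taken by Id4, Id2, and Id1 with Id3 in each of the 12 libraries. The Id4 part shrinks from between 70.8% and 75.6% in E13.5 p18mKO2- to between 39.2% and 47.2% in E13.5 p18mKO2+ and to under 20% in every E16.5 library, the highest being 19.9%.

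Among the ligands, Bmp4 (ENSMUSG00000021835, chromosome 14, 46383520 to 46390669, minus strand), made at the dorsal midline and in the cortical hem, was near the limit of detection. Its counts were 25, 71 and 39 in E13.5 p18mKO2- and 14, 35 and 27 in E13.5 p18mKO2+. At E16.5 they were 2, 1 and 12 in p18mKO2- and 10, 30 and 2 in p18mKO2+. The p18 labels overlapped at both stages, and the E16.5 p18mKO2- libraries lay below all E13.5 p18mKO2- libraries. The fall with stage in p18mKO2- passed the threshold, from 2.48 ± 1.29 to 0.290 ± 0.353 CPM (SD, n = 3 each; log2 change -3.08 ± 1.03, SE; edgeR adjusted p = 0.0364). It was lost on leaving out replicate 2 (-2.61, edgeR adjusted p = 0.112) or 3 (-3.13, 0.0591) of E13.5 p18mKO2-, or replicate 1 (-2.73, 0.113) or 2 (-2.57, 0.11) of E16.5 p18mKO2-, and with the Y-linked covariate (-3.05, 0.0586).

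Markers of the cortical hem and choroid plexus did not move as one. Wnt8b, a hem signal, had 120, 418 and 132 counts in E13.5 p18mKO2-, 157, 55 and 25 in E13.5 p18mKO2+, 0 in each E16.5 p18mKO2- library, and 2, 68 and 0 in E16.5 p18mKO2+. Replicate 2 of E13.5 p18mKO2- and of E16.5 p18mKO2+ was highest of its group in both Wnt8b and Bmp4. In E13.5 p18mKO2+ the library highest in Wnt8b was lowest in Bmp4, and in E16.5 p18mKO2- Bmp4 peaked in replicate 3, where Wnt8b was at 0. Lmx1a, a roof plate and hem gene, was at 2.21 ± 1.17 CPM in E13.5 p18mKO2- and 2.71 ± 2.09 in E13.5 p18mKO2+, and was not called in any comparison. The 9 markers of hem and choroid plexus summed to between 23.0 and 395 CPM in E13.5 p18mKO2-, 26.4 and 662 in E13.5 p18mKO2+, 179 and 454 in E16.5 p18mKO2-, and 311 and 1444.3 in E16.5 p18mKO2+, with Wnt3a and Wnt8b at 0 in E16.5 p18mKO2-. The median of that sum in p18mKO2- was 148 CPM at E13.5 and 286 CPM at E16.5. Ttr made up most of the E16.5 sum, at 275, 439 and 172 CPM in the p18mKO2- libraries. Gene by gene, 8 of these markers were tested, and with stage in p18mKO2- 2 were lower and 0 higher, beside 13.4% and 16.4% of all genes. The median log2 change of the 8 markers was -1.83, where all genes had -0.02. The part of how much hem each cut took in was not tested.

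Bmp7 (ENSMUSG00000008999, chromosome 2, 172868012 to 172940321, minus strand), a ligand of the meninges, hem and progenitors, was at 10.3, 18.7 and 8.66 CPM in E13.5 p18mKO2- and at 14.4, 11.1 and 12.8 CPM in E13.5 p18mKO2+. At E16.5 it was at 7.49, 8.70 and 11 CPM in p18mKO2- and at 14.4, 15.7 and 9.03 CPM in p18mKO2+. The groups overlapped in all 4 pairs compared. The E13.5 difference between the p18 labels was 0.02 ± 0.30 (edgeR adjusted p = 0.977) and that at E16.5 0.52 ± 0.30 (edgeR adjusted p = 1.0).

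The main type I receptor of cortical progenitors, Bmpr1a (ENSMUSG00000021796, chromosome 14, 34410734 to 34503341, minus strand), was at 172, 177 and 114 CPM in E13.5 p18mKO2- and at 140.3, 134 and 99.9 CPM in E13.5 p18mKO2+. It was at 124, 119 and 97.1 CPM in E16.5 p18mKO2- and at 113, 117 and 98.7 CPM in E16.5 p18mKO2+. Replicate 3 was lowest in every group, and the groups overlapped in all 4 pairs compared. The changes were -0.31 ± 0.18 between the p18 labels at E13.5 (edgeR adjusted p = 0.314) and -0.45 ± 0.18 with stage in p18mKO2- (edgeR adjusted p = 0.0817). Without replicate 3 of E13.5 p18mKO2- the stage change was -0.62 (edgeR adjusted p = 0.0146).

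Bmpr1b (ENSMUSG00000052430, chromosome 3, 141837136 to 142169425, minus strand), a second type I receptor, was at 16.7, 13.1 and 18 CPM in E13.5 p18mKO2- and at 18.3, 19.8 and 17.9 CPM in E13.5 p18mKO2+. It was at 18.2, 19.6 and 36.4 CPM in E16.5 p18mKO2- and at 23.3, 21.5 and 22.3 CPM in E16.5 p18mKO2+. Replicate 3 of E16.5 p18mKO2- stood far above the rest. The stage change in p18mKO2- was 0.63 ± 0.24 (edgeR adjusted p = 0.0576) and 0.26 (edgeR adjusted p = 0.322) without that library. It was 0.81 (edgeR adjusted p = 0.0238) without replicate 1 and 0.78 (0.0395) without replicate 2 of the same group.

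Smad1 (ENSMUSG00000031681, chromosome 8, 79338395 to 79399518, minus strand), which carries the receptor signal to the nucleus, was at 64.8, 55.7 and 50.2 CPM in E13.5 p18mKO2- and at 62.9, 63.8 and 63.2 CPM in E13.5 p18mKO2+. It was at 80.9, 68.8 and 75.6 CPM in E16.5 p18mKO2- and at 76.6, 69.1 and 71.5 CPM in E16.5 p18mKO2+. All E16.5 libraries lay above all E13.5 libraries, and the p18 labels overlapped at both stages. With stage Smad1 rose by 0.40 ± 0.13 on the log2 scale in p18mKO2-, from 56.9 ± 7.38 to 75.1 ± 6.09 CPM (SD, n = 3 each; edgeR adjusted p = 0.0272). This call was lost on leaving out replicate 2 (0.39, edgeR adjusted p = 0.0768) or 3 (0.32, 0.0914) of E13.5 p18mKO2- or replicate 1 of E16.5 p18mKO2- (0.34, 0.0901), and with limma on log2(TPM + 1) (0.37, 0.144), without a filter (0.44, 0.0549) and with only the libraries compared (0.41, 0.102).

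Smad6 (ENSMUSG00000036867, chromosome 9, 63953076 to 64022059, minus strand), the feedback inhibitor, was at 5.45, 4.61 and 3.74 CPM in E13.5 p18mKO2- and at 3.59, 2.47 and 1.71 CPM in E13.5 p18mKO2+. It was at 5.65, 2.75 and 0.637 CPM in E16.5 p18mKO2- and at 2.27, 3.67 and 1.61 CPM in E16.5 p18mKO2+. The E13.5 groups were apart by only the step from 3.59 to 3.74 CPM, and 30.7% of all genes tested were apart in that comparison. The E16.5 p18mKO2- libraries spanned the whole range. Its E13.5 change of -0.83 ± 0.60 was not called (edgeR adjusted p = 0.424), on 11 to 105 counts a library. Endothelial cells also express Smad6. Their 9 markers, none of them at 0 in any group, summed to between 100.66 and 141.26 CPM in E13.5 p18mKO2- and between 126 and 135 CPM in E13.5 p18mKO2+.

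**Figure D3:**
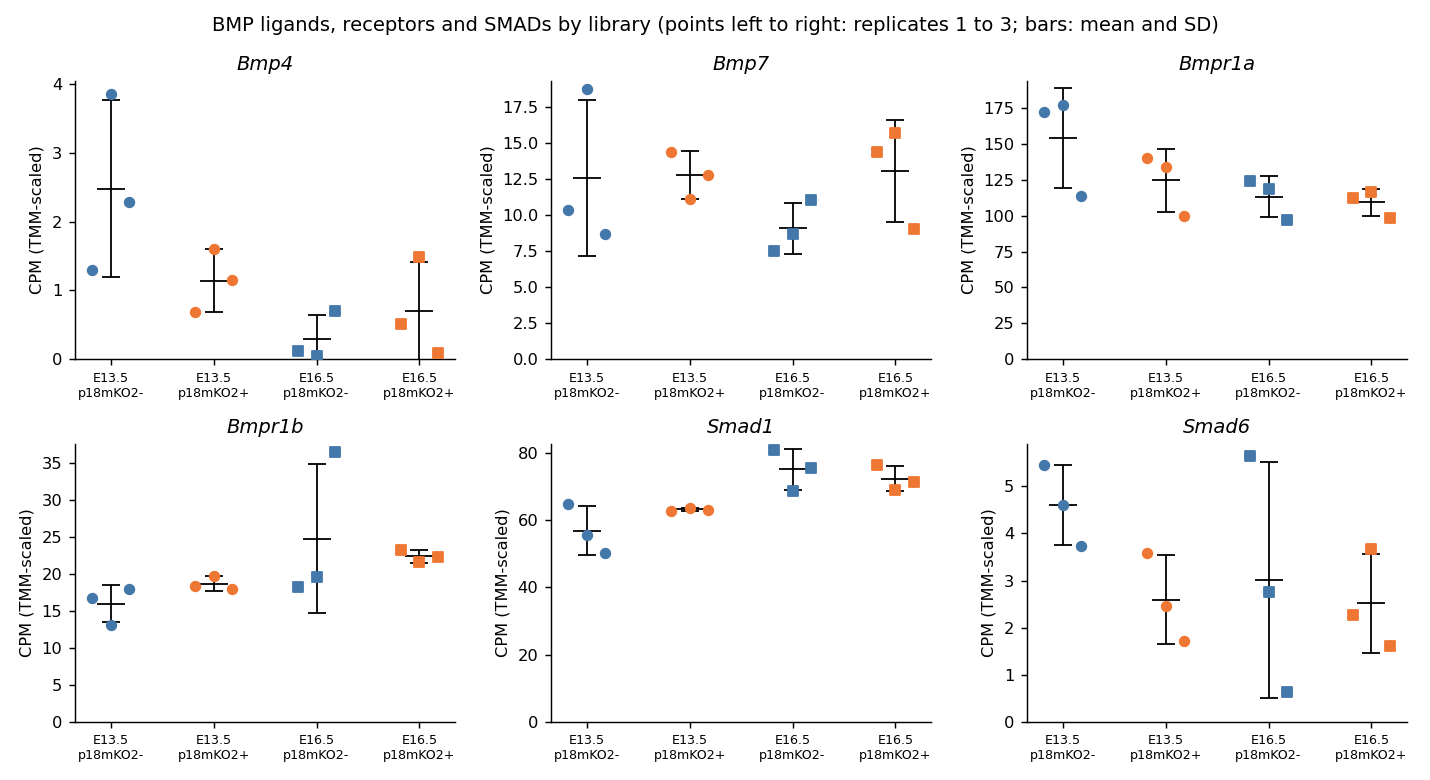
CPM (TMM-scaled) of the ligands Bmp4 and Bmp7, the receptors Bmpr1a and Bmpr1b, and Smad1 and Smad6 in each library by stage and p18 label, with mean and SD of 3 libraries; each panel starts at 0. Smad1 is higher in every E16.5 library than in any E13.5 library. Bmpr1b shows replicate 3 of E16.5 p18mKO2- apart, at 36.4 CPM, and Smad6 in that group runs from 0.637 to 5.65 CPM.

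Counted together, 1 of the 10 genes was called between the p18 labels at E13.5 (Id4, lower), beside 10.8% of all genes tested (7.29% higher and 3.49% lower). At E16.5 edgeR called none of the 10 and 0.0% of all genes. There 426 genes and 0 of the 10 had an unadjusted p under 0.05, and DESeq2 called 13 genes. The interaction called 1 of the 10 (Id4, higher) beside 2.7% of all genes (0.298% higher and 2.4% lower). With stage, 4 of 10 were called in p18mKO2- (Id2 and Smad1 higher, Id4 and Bmp4 lower) beside 29.8% of all genes (16.4% higher and 13.4% lower). In p18mKO2+ it was 1 (Id4, lower) beside 1.64% (1.08% higher and 0.554% lower). These shares do not set the 10 apart from the genes tested; the result lies in Id4 and, with stage, Id2.

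By the cruder measure of groups that do not overlap in CPM, 3 of the 10 were apart at E13.5 (Id2, Id4 and Smad6) beside 30.7% of genes, and 1 at E16.5 (Id4) beside 7.95%. With stage it was 7 in p18mKO2- beside 40.4% and 4 in p18mKO2+ beside 26.6%. The median log2 change over the 10 was 0.03 between the p18 labels at E13.5 and -0.05 at E16.5, where all genes had 0.01 and -0.01. With stage it was -0.46 in p18mKO2- and -0.01 in p18mKO2+, where all genes had -0.02 and -0.03.

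**Figure D4:**
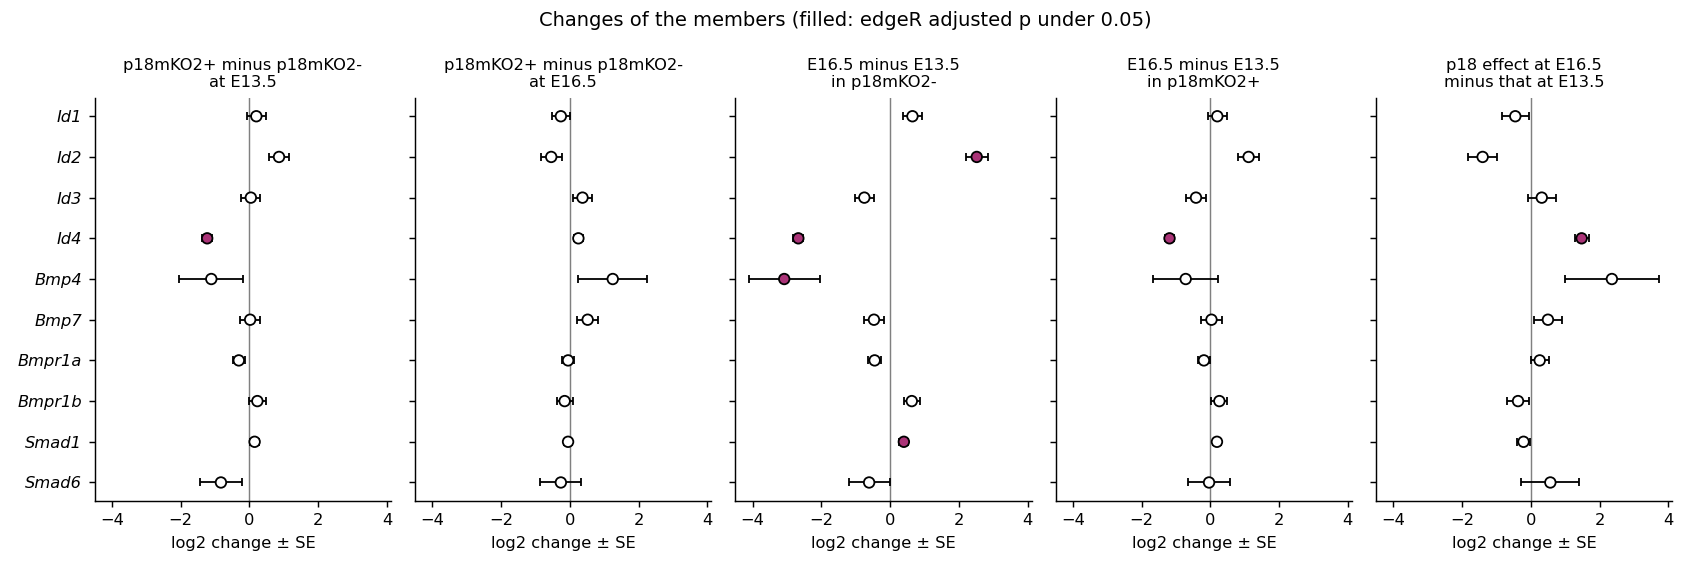
Log2 change with its SE for each of the 10 genes in the 5 comparisons (edgeR); filled points have an adjusted p under 0.05. Id4 is filled in 4 of the 5 panels, at -1.23, -2.67, -1.19 and 1.48, and the panel for p18mKO2+ against p18mKO2- at E16.5 has no filled point.

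Beyond these 10, lists of the pathway held 83 further genes, of which 73 were tested. Between the p18 labels at E13.5, 6 of the 73 were higher and 6 lower, beside 7.29% and 3.49% of all genes tested. The median log2 change was -0.01, where all genes had 0.01. With stage in p18mKO2-, 13 of the 73 were higher and 13 lower, beside 16.4% and 13.4% of all genes. The median was 0.03, where all genes had -0.02. At E16.5 edgeR called 0 between the p18 labels and 0.0% of all genes. In the interaction 1 was higher and 2 were lower, beside 0.298% and 2.4%. The same shares stand beside the counts by list below.

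Of the 7 ligands tested, Bmp3, an antagonist-like member of the family, was the one called at E13.5. It was at 4.31, 5.26 and 2.16 CPM in p18mKO2- and at 19.2, 7.45 and 6.91 CPM in p18mKO2+, with replicate 1 of E13.5 p18mKO2+ far above the others. The change was 1.51 ± 0.41 (edgeR adjusted p = 0.0316). Without that library it was 0.87 (edgeR adjusted p = 0.193), without replicate 1 of E13.5 p18mKO2- 1.57 (0.0703) and without replicate 3 of that group 1.23 (0.0995). Over all 22 alternatives the Bmp3 call was lost in 6. None of the 7 receptors was called between the p18 labels. With stage in p18mKO2-, the type I receptor Acvr1 rose by 1.23 ± 0.21, from 28.3 ± 5.03 to 66.2 ± 18.7 CPM (SD, n = 3 each; edgeR adjusted p = 0.000731). The type II receptor Bmpr2 rose by 0.70 ± 0.13, from 176 ± 24.5 to 286 ± 10.8 CPM (edgeR adjusted p = 0.00112), and both calls held in all 22 alternatives. Another type II receptor, Acvr2b, fell by 1.06 ± 0.34, from 25.4 ± 4.59 to 12.2 ± 7.45 CPM (edgeR adjusted p = 0.0299), with overlapping groups. That call was lost without replicate 1 (-1.01, adjusted p = 0.0822) or 2 (-0.95, 0.0911) of E13.5 p18mKO2- or replicate 2 (-0.86, 0.119) or 3 (-0.78, 0.104) of E16.5 p18mKO2-. Over all 22 alternatives the Acvr2b call was lost in 7.

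Of the 6 SMADs of the pathway, Smad1 and Smad6 included, none was called between the p18 labels and Smad1 alone with stage. The mean level of Smad5, the close relative of Smad1, was 199 CPM in E13.5 p18mKO2- and 213 CPM in E13.5 p18mKO2+, and that of the shared partner Smad4 was 97.7 and 97.4 CPM. Among 16 antagonists and extracellular modulators, Crim1, a membrane protein that binds BMPs, was the one called at E13.5. It was at 11.3, 14.8 and 14.0 CPM in p18mKO2- and at 33.7, 26.7 and 28.9 CPM in p18mKO2+. At E16.5 it was at 49.7, 43.6 and 54.1 CPM in p18mKO2- and at 36.7, 39.3 and 40.8 CPM in p18mKO2+. The order of the p18 labels turned between the stages, with no overlap at either, but Crim1 was not called at E16.5. Groups did not overlap in 30.7% of all genes at E13.5 and in 7.95% at E16.5. Crim1 rose by 1.16 ± 0.16 at E13.5 (edgeR adjusted p = 0.000713), held in all 22 alternatives, and its interaction was -1.49 ± 0.22 (edgeR adjusted p = 0.00319). Noggin (Nog), the classic secreted antagonist, was not called, with means of 11.3 and 10.0 CPM in the E13.5 groups.

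Of 12 intracellular modulators of SMAD signalling, 2 were higher at E13.5, beside 7.29% of all genes. Skil, a SMAD corepressor, was at 45.1, 42.2 and 34 CPM in p18mKO2- and at 69.8, 63.0 and 65.9 CPM in p18mKO2+, a rise of 0.71 ± 0.14 (edgeR adjusted p = 0.00679), called in 20 of 22 alternatives. With stage in p18mKO2-, 5 of the 12 rose and 1 fell, beside 16.4% and 13.4% of all genes. The risers included Skil (0.91 ± 0.14, edgeR adjusted p = 0.000325) and Ski (0.57 ± 0.14, edgeR adjusted p = 0.00583).

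BMP targets other than the Id genes went down where they were called: 3 of 10 tested at E13.5 and 3 with stage in p18mKO2-. Of all genes, 3.49% were lower at E13.5 and 13.4% with stage in p18mKO2-. Atoh8, a bHLH gene switched on by BMP in several tissues, was at 4.26, 5.91 and 6.08 CPM in E13.5 p18mKO2- and at 1.21, 2.29 and 1.88 CPM in E13.5 p18mKO2+. This fall of 1.59 ± 0.41 on the log2 scale (edgeR adjusted p = 0.0241) was lost on leaving out replicate 2 (adjusted p = 0.0698) or 3 (0.0665) of E13.5 p18mKO2-, or replicate 1 (0.0999) or 3 (0.0749) of E13.5 p18mKO2+. Over the 21 alternatives that gave a value, the Atoh8 call was lost in 7. The other 2 were Hes1 and Hey1, which are at the same time targets of Notch. Their falls of 1.07 ± 0.28 (edgeR adjusted p = 0.028) and 0.74 ± 0.22 (edgeR adjusted p = 0.0494) were lost without any of replicates 1, 2 and 3 of E13.5 p18mKO2- or replicates 1 and 3 of E13.5 p18mKO2+, with adjusted p up to 0.125 and 0.19. The Hey1 call was lost with 5 of the E16.5 libraries left out as well (all but p18mKO2- replicate 3). Over all 22 alternatives, other methods and covariates included, the Hes1 call was lost in 9 and the Hey1 call in 15. Msx1 and Msx2, standard readouts of BMP at the dorsal midline, were not called, at means of 4.15 and 3.07 CPM for Msx1 and 1.05 and 0.146 CPM for Msx2 in the E13.5 groups.

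The partners of ID proteins gave a mixed picture. Among the 3 E proteins, Tcf3 fell with stage in p18mKO2- by 1.07 ± 0.16 on the log2 scale, from 263 ± 13.6 to 125 ± 25.0 CPM (SD, n = 3 each; edgeR adjusted p = 0.000264). Its E13.5 p18 change of -0.57 ± 0.16 (edgeR adjusted p = 0.0382) was lost in 9 of the 12 fits that left out a library, with adjusted p up to 0.18 (without replicate 3 of E13.5 p18mKO2+). It was kept without replicate 2 of E13.5 p18mKO2+ or replicate 1 or 3 of E16.5 p18mKO2-. Over all 22 alternatives this call was lost in 13. Tcf4 and Tcf12 were not called, and Tcf4 was the most abundant with means of 1220.0 and 1169 CPM in the E13.5 groups.

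Of 8 class II bHLH genes tested, Olig1, of the oligodendrocyte lineage, rose at E13.5, from 1.25, 1.14 and 0.819 CPM to 5.62, 3.38 and 2.86 CPM. The change was 1.88 ± 0.34 (edgeR adjusted p = 0.00363), called in 21 of 22 alternatives. Olig1 is also made in the ventral telencephalon, whose markers, given beside Id4, were higher in sum in p18mKO2+ at both stages, and their part in the Olig1 result was not tested. The proneural gene Neurog1 fell, from 28.5, 22 and 30.2 CPM to 9.07, 11.8 and 6.02 CPM, a change of -1.58 ± 0.42 (edgeR adjusted p = 0.0283) lost without replicate 1 (adjusted p = 0.0738) or 3 (0.0786) of E13.5 p18mKO2- or replicate 1 (0.0943) or 3 (0.117) of E13.5 p18mKO2+. Over all 22 alternatives the Neurog1 call was lost in 8. With stage in p18mKO2-, 3 of the 8 rose, among them the neuronal genes Neurod2 and Neurod6, and 2 fell, Neurog1 and Neurog2. Of all genes, 16.4% rose and 13.4% fell.

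Genes of the HES and HEY family, most of which hold progenitors back from neurogenesis while Hes6 promotes it, were lower in 3 of 6 at E13.5 and in 5 of 6 with stage in p18mKO2-. The shares of all genes that were lower were 3.49% and 13.4%. Hes5 was at 49.4, 39.6 and 51.2 CPM in E13.5 p18mKO2- and at 17.1, 28.9 and 27.7 CPM in E13.5 p18mKO2+, with no overlap. At E16.5 Hes5 was at 9.95, 7.53 and 7.59 CPM in p18mKO2- and at 10.5, 9.32 and 13.2 CPM in p18mKO2+. Its E13.5 change was -0.93 ± 0.22 (edgeR adjusted p = 0.0165), lost without replicate 1 (-0.89, adjusted p = 0.0525) or 3 (-0.85, 0.0537) of E13.5 p18mKO2- or replicate 1 of E13.5 p18mKO2+ (-0.72, 0.0709). Over all 22 alternatives this E13.5 call was lost in 5. With stage in p18mKO2- Hes5 fell by 2.48 ± 0.23 (edgeR adjusted p = 6.42e-06). The shift of radial glial and neuronal markers given beside Id4 holds for these genes too, and its part was not tested.

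**Figure D5:**
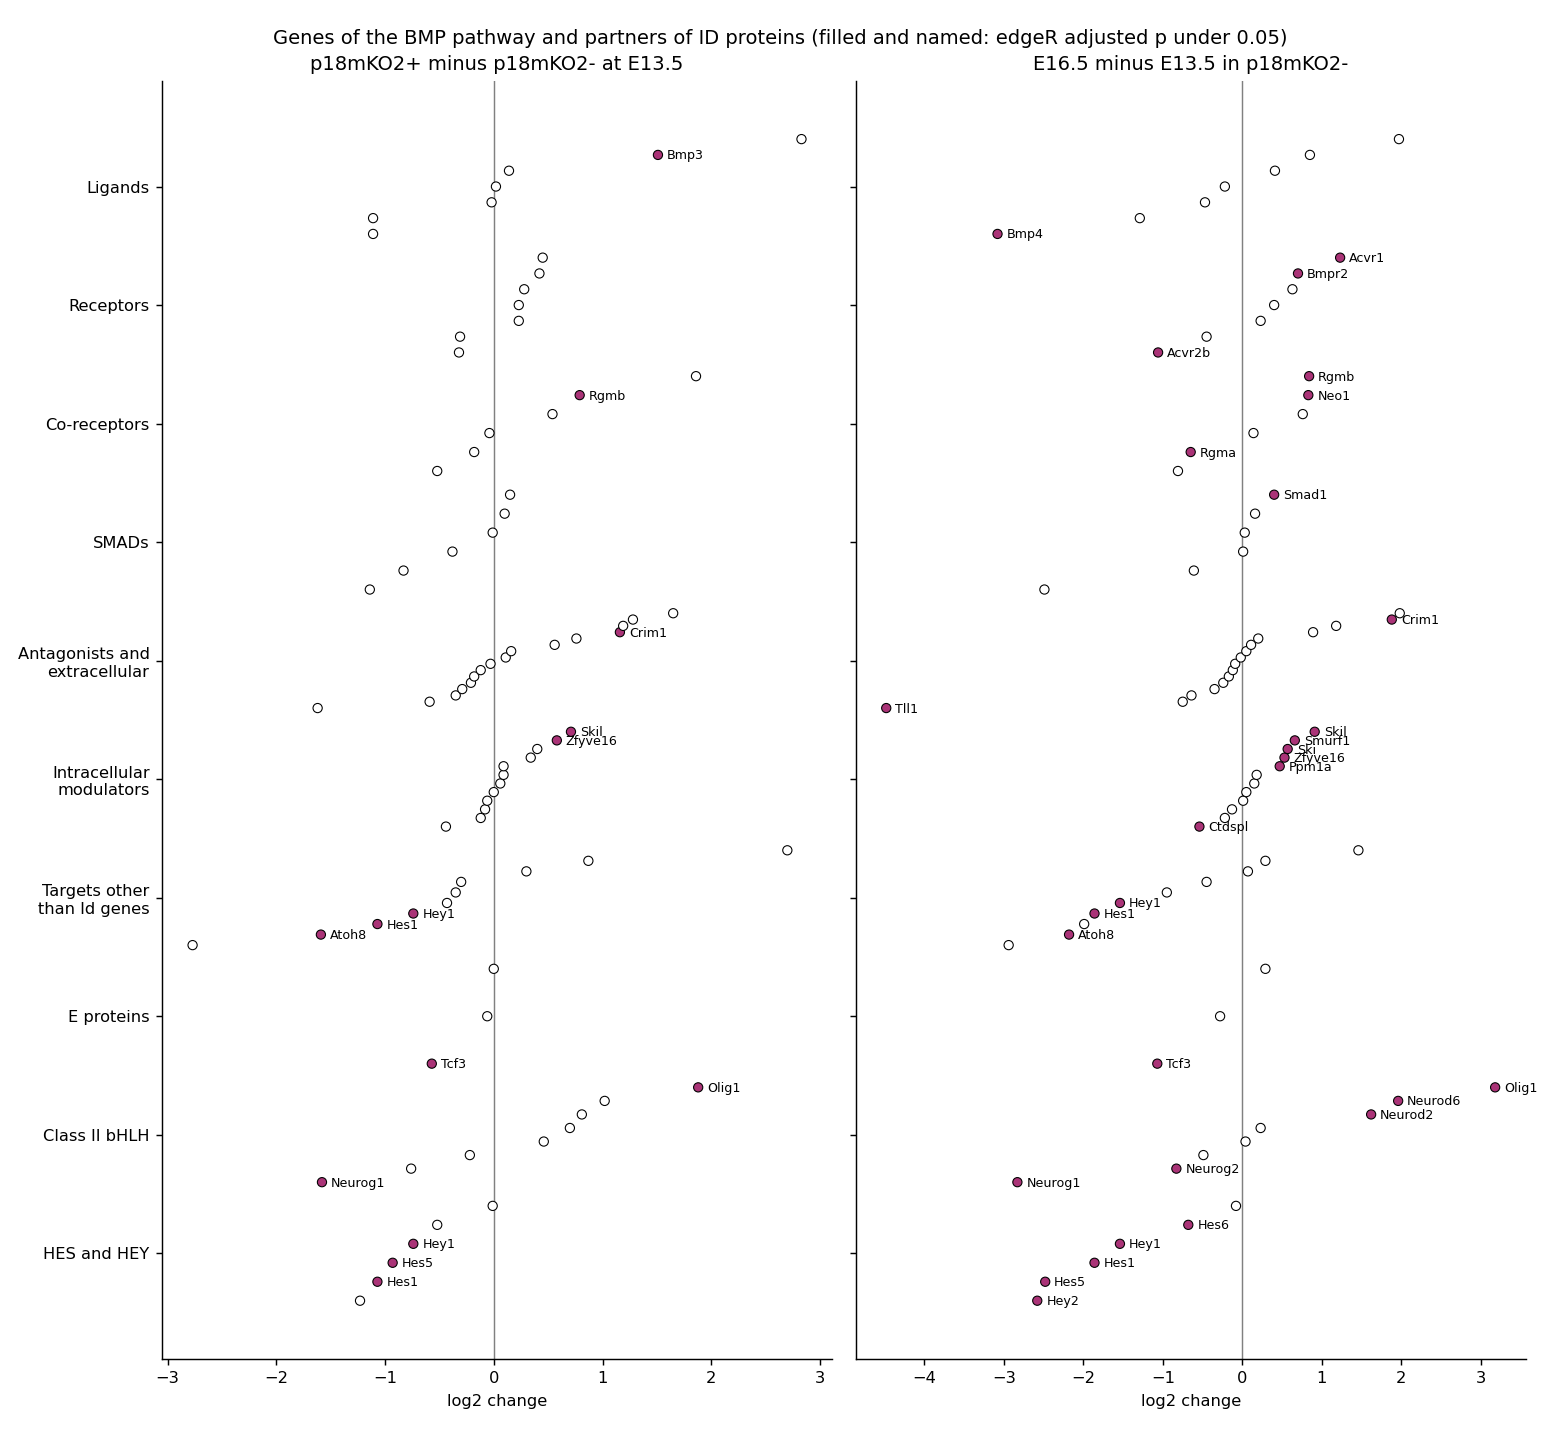
Log2 change of each tested pathway gene by role, between the p18 labels at E13.5 (left) and with stage in p18mKO2- (right); filled and named points have an edgeR adjusted p under 0.05. Ligand, receptor and SMAD rows include Bmp4, Bmp7, Bmpr1a, Bmpr1b, Smad1 and Smad6. All 6 HES and HEY genes lie left of 0 in both panels, Heyl nearest to it at -0.01 and -0.08, Crim1 lies right of 0 in both (1.16 and 1.88), and receptors show no filled point on the left.

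The genes most like each Id gene across the 12 libraries were taken by Pearson r of log2 CPM among 10315 genes with a mean of at least 5 TPM. For Id4 they were Chek1 (r = 0.99), Cep55 (0.98) and Gen1 (0.98). For Id2 they were Tmem108 (0.98), Tsc22d1 (0.97) and the BMP receptor Acvr1 (0.97). Id1 was nearest to Nfyb, Fam76a and Zfp30 (0.88 each), and Id3 to Anxa2, Gpc3 and Kirrel (0.93 each). Id2 and Id4 had an r of -0.92 with each other. These values describe libraries that share 4 groups, depth and tissue make-up, and any gene that moved with stage scores high by this measure.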

How the data were processed

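RNA from laser-microdissected ventricular zone was profiled in 12 mouse libraries with a directional kit, per the labels' protocols. Per the submitters' processing notes, the tools included RSEM 1.2.31, STAR 2.7.2b and cutadapt 3.4, and the build was GRCm38 (mm10). The sources used here do not give the annotation release or strand setting. The authors deposited, per the file headers, RSEM expected counts, which share multi-mapped reads between genes, and TPM, which divide by effective length and scale each library to a fixed total. The posterior SD of the count and the gene length, both deposited by the authors, were also read; the posterior SD was 0.0 for all 10 genes in every library. Of 55487 identifiers 55141 had a symbol, and names and coordinates came from GENCODE (GRCm38).

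Expected counts were rounded. With filterByExpr 16798 genes remained, which were scaled by TMM and fitted over all 12 libraries by quasi-likelihood in edgeR 4.0.16 under R 4.3.3 (8 residual degrees of freedom; common biological coefficient of variation 0.311). The contrasts compared the p18 labels within each stage, then the difference of those effects, and the stage change within each p18 label. Calls used a Benjamini-Hochberg adjusted p under 0.05 over all genes tested. SE is the log2 change over the square root of F. CPM uses TMM-scaled library sizes, and log2 CPM a prior count of 2. TPM ran ahead of CPM in p18mKO2+, the median log2 gap being 0.17 for the E13.5 libraries and 0.27 for those of E16.5, so CPM was used between libraries and TPM between genes.

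The 10 genes and the pathway and marker lists were chosen with earlier results of these data known; 1 gene of the pathway lists is not reported here. Of the lists, genes called in a comparison could be named, up to 4 per list and comparison, beside uncalled genes given by mean only (chosen after their values were seen), and for each Id gene the 3 with the highest r. The planned comparison of the ID proteins was not made. Alternatives were RLE size factors, DESeq2 1.42.0, all genes with no filter, a floor of 5 on the mean CPM, a replicate block, only the libraries compared, limma 3.58.1 on log2(TPM + 1), and leaving out each library. After seeing the data, 3 more were added: dropping both libraries that held Xist and Y-linked transcripts together, and covariates for a ribosomal RNA gene or Y-linked genes. No library pair looked like a duplicate, with chi-square over its degrees of freedom from 12.1 to 149.04 within groups. The main edgeR fit was tried on simulated counts with a common dispersion, for the E13.5 p18 comparison only. The other contrasts and methods were not tried in this way.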

Additional observations from a re-analysis of the deposited data

Results flagged for a closer look

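In 4 genes the difference between libraries labelled p18mKO2+ and p18mKO2- itself differed between E13.5 and E16.5, by edgeR's interaction test with Benjamini-Hochberg adjustment, and this is why they are listed. Id4 had an interaction of 1.48 ± 0.20 on the log2 scale (edgeR adjusted p = 0.00181), lower in all 3 labelled p18mKO2+ libraries at E13.5 and marginally higher in all 3 at E16.5. Crim1 had -1.49 ± 0.22 (edgeR adjusted p = 0.00319), higher in 3 of 3 at E13.5 and lower in 3 of 3 at E16.5. For Crim1 limma on log2(TPM + 1) gave -1.66 with an adjusted p of 0.126. Neither Id4 nor Crim1 was called between the p18 labels at E16.5. Hes5 had 1.32 ± 0.32 (edgeR adjusted p = 0.0412) and Skil -0.83 ± 0.20 (edgeR adjusted p = 0.0431). The Hes5 call was lost in 10 of 12 fits that left out a library (all but E13.5 p18mKO2+ replicate 2 and E16.5 p18mKO2- replicate 1), with adjusted p up to 0.11, and the Skil call in all 12, up to 0.131. Over all 21 alternatives the Hes5 interaction call was lost in 13, that of Skil in 15 and that of Crim1 in 1.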

How the results depend on the processing

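Id4 kept its direction and calls in every alternative. Of 1080 recomputed changes of the 10 genes 1008 kept direction and call, 22 gained a call, 11 lost one and 39 changed sign, all 39 in comparisons where the gene was not called in the main fit. For the pathway genes 772 held and 167 lost the call. Bmp4 and Smad6 fell under the filter of a mean CPM of at least 5. The cause of these changes was not tested.

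Genes called at E13.5 between the p18 labels were 1063 with limma on log2(TPM + 1), 796 without the libraries with transcripts of both sexes, 729 with the ribosomal RNA covariate and 929 with the Y-linked covariate (1810 in the main analysis); at E16.5 they were 13 with DESeq2, 81 without a filter and 1 without the both-sex libraries. Interaction calls were 1065 with DESeq2, 1168 without a filter, 767 with the replicate block, 50 with limma, 149 without the both-sex libraries and 294 with the Y-linked covariate, against 453. Stage calls in p18mKO2+ were 795, 970, 547, 622 (only the libraries compared), 155, 116 and 146 in the same order, against 275. Of the 10 genes, 2 were called at E13.5 and in p18mKO2+ with stage under DESeq2, no filter, the replicate block and limma, also with only the libraries compared for the stage change, and 2 in the interaction under the first 3 of these; the added gene was Id2 each time. Leaving out 1 library gave 927 to 2383 genes at E13.5 (1140 without p18mKO2- replicate 2, 927 without p18mKO2+ replicate 1 and 933 without its replicate 3) and 0 to 1 at E16.5 (1 without p18mKO2- or p18mKO2+ replicate 3). In the interaction it gave 124 to 525 (246 without E13.5 p18mKO2- replicate 2, 200 without E13.5 p18mKO2+ replicate 1, and 225, 124 and 179 on dropping replicate 1, 2 or 3 of E16.5 p18mKO2+). With stage in p18mKO2+ it gave 76 to 573 (116 or 150.0 on dropping replicate 1 or 2 of E13.5 p18mKO2+; 76, 160.0 or 115 on dropping replicate 1, 2 or 3 of E16.5 p18mKO2+; 573 without E16.5 p18mKO2- replicate 3). It gave 1 to 2 of the 10 genes at E13.5 and with stage in p18mKO2+, (2 without E16.5 p18mKO2- replicate 3), and 2 to 4 with stage in p18mKO2- (2 without E13.5 p18mKO2- replicate 2).

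Changes of sign at E13.5 were -0.03 (Id3) and -0.23 (Bmp7) with the ribosomal covariate and -0.02 (Id3) with the Y-linked one. At E16.5, limma gave 0.0 (Id1), 0.22 (Bmpr1a), 0.12 (Bmpr1b) and 0.29 (Smad1), as its median over all genes moved to 0.23 (0.14 at E13.5), the scaling shift given for TPM. The ribosomal covariate gave 0.21 (Id1), -0.59 (Bmp4), -0.1 (Bmp7), 0.06 (Bmpr1a) and 0.45 (Smad6), the Y-linked one 0.01 (Smad6), and leaving out the both-sex libraries 0.03 (Bmpr1a). With stage in p18mKO2+, Smad6 was 0.01 without a filter, 0.04 with limma, 0.0 without the both-sex libraries, 0.24 and 0.14 with the covariates; Bmp7 was -0.01 with the replicate block and -0.22 with the ribosomal covariate, and Id1 was -0.13 without the both-sex libraries. Leaving out 1 library gave, at E13.5, -0.18 to 0.43 (Bmp7) and -0.01 to 0.11 (Id3). At E16.5 it gave -0.14 to 0.04 (Bmpr1a), -0.11 to 0.02 (Smad1), -0.73 to 0.58 (Smad6) and -0.3 to 0.25 (Bmpr1b). It gave -0.53 to 0.02 in the interaction (Bmpr1b), and -0.37 to 0.3 (Smad6) and -0.08 to 0.28 (Bmp7) with stage in p18mKO2+.

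Whether replicate numbers pair the libraries was not settled: same-numbered deviations had a low r, from -0.07 to 0.2. Between the p18 labels at E13.5 it was 0.01, -0.01 and 0.03, below the highest r with another number (0.1, 0.08 and 0.07). At E16.5 it was 0.1, 0.06 and 0.15, above the highest r with another number (0.04, 0.04 and -0.08). With the number as a replicate block, Id2 passed at E13.5 (0.94, adjusted p = 0.0237), with stage in p18mKO2+ (1.03, 0.0418) and in the interaction (-1.46, 0.0324). Depth limits Bmp4 and Smad6 most, with as few as 1 and 11 counts.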
